A study of Mus musculus with 2 samples.

Results

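A set of 10 genes of the cyclic AMP response was followed across the cell types of mouse pancreatic islets: the catalytic subunits of protein kinase A (PKA) Prkaca and Prkacb, the regulatory subunits Prkar1a, Prkar1b, Prkar2a and Prkar2b, the Epac proteins Rapgef4 (Epac2) and Rapgef3 (Epac1), and the transcription factors Creb1 and Crem. The rule takes them by symbol and sets no threshold on a measured value, although the set was drawn up with earlier results of these data known. They are 10 of the 32285 genes of the deposited matrices. All 10 matched exactly 1 gene each. Islet cells came from mice labelled DIO that were given saline or 10 mg/kg of an agent labelled CDS for 2 weeks. The labels do not say what CDS is, how many mice were used, or their strain, age or sex. The series title names an antagonist of the alpha2A-adrenergic receptor, which lowers cyclic AMP in beta cells, and a question the libraries can address is how the genes that read cyclic AMP stand in each cell type and group. Each group had 1 droplet library, so a difference between the groups has no replicate check.

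Cyclic AMP acts in islet cells mainly through PKA and Epac. In resting cells the regulatory subunits hold the catalytic subunits inactive, and cyclic AMP binds the regulatory subunits and frees the catalytic ones, which then phosphorylate channels, exocytosis proteins and transcription factors such as CREB. Epac proteins are exchange factors for Rap GTPases that open when cyclic AMP binds, and Epac2 is known for its part in the incretin-stimulated release of insulin. CREB activates genes when PKA phosphorylates it, and Crem encodes both activators and the short repressor ICER.

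The regulatory subunits differ at the site that fills the catalytic cleft, which sets type I apart from type II PKA. The coding stretches below, read from the GENCODE transcripts of mm10, are given 5′ to 3′ on the coding strand, with the codon at the acceptor position in capitals, and the matching stretch of Creb1 around the site that PKA phosphorylates is set beside them.
Prkar1a: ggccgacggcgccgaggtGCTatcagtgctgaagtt
Prkar1b: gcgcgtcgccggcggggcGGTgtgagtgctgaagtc
Prkar2a: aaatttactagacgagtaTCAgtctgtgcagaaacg
Prkar2b: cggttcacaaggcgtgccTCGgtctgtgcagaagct
Creb1: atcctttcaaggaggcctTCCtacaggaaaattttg
In the type I genes the capital codon encodes alanine (Prkar1a) or glycine (Prkar1b), which cannot take a phosphate. In the type II genes and in Creb1 it encodes serine. Over these 36 bases Prkar1a and Prkar1b shared 25 identical bases, Prkar2a and Prkar2b 24, and the pairs across types 14 to 17. The Prkar1a stretch lies in exon 4 (chromosome 11, 109660098 to 109660133, plus strand) and the Prkar1b stretch in exon 3 (chromosome 5, 139108520 to 139108555, minus strand). The other stretches cross an exon junction: Prkar2a in exons 2 and 3 (chromosome 9, 108714287 to 108716876, plus strand), Prkar2b in exons 2 and 3 (chromosome 12, 31993770 to 32038643, minus strand) and Creb1 in exons 4 and 5 (chromosome 1, 64566292 to 64570143, plus strand). UMIs of a 3′ library do not report on these stretches, which are shown to tell the subunit types apart.

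The Saline library held 12453 barcodes and 124343325 UMIs (unique molecular identifiers, which count captured RNA molecules), and the CDS library 7268 barcodes and 141191447 UMIs. After filters, 10954 and 6132 cells remained, with medians of 9791 and 18996 UMIs per cell and median mitochondrial shares of 2.48% and 1.42%. The libraries shared 25 barcodes, 18 of them among kept cells. The labelled cell type is islet b cell, yet a gate on marker genes found 4949 Saline and 3627 CDS beta-like cells beside 796 and 908 alpha-like, 457 and 392 delta-like, 159 and 88 PP-like, 319 and 240 endothelial-like, 149 and 140 macrophage-like and 55 and 53 ductal-like cells. Only the Saline library held at least 50 cells that were stromal-like (87), acinar-like (61), dendritic-like (81), B-like (1070), T-like (1020) or plasma-like (85). Summed over its marker list, each class also held RNA of other lists. In CDS delta-like cells the PP list summed to 72021 CPM (unscaled) against 61377 for the delta list, and in ductal-like cells to 16660 and 10140 CPM against 13972 and 9491 for the ductal list, with which it shares Spp1. The beta list summed to 39101 and 42280 CPM in ductal-like, 22997 and 21801 CPM in endothelial-like and 22174 and 24951 CPM in macrophage-like cells, above each class's own list. In the Saline library it also stood above the own list in B-like (45409 against 5547 CPM) and T-like cells (39694 against 2579). The same held in dendritic-like (23397 against 5543), stromal-like (17030 against 4996) and plasma-like cells (19761 against 14281). The part of these RNAs in the results below was not tested. Insulin RNA took 35.4% of UMIs in Saline and 41.0% in CDS beta-like cells, and 1.5% to 4.06% in the other classes, where it served as a measure of free RNA from beta cells. Levels are given as CPM (UMIs of a gene per 1000000 UMIs of the class) scaled with TMM factors, and their 95% intervals are exact Poisson intervals that cover counting error only. Capture differs between genes, so levels and shares of different genes set side by side are read only across classes and libraries.

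**Figure D1:**
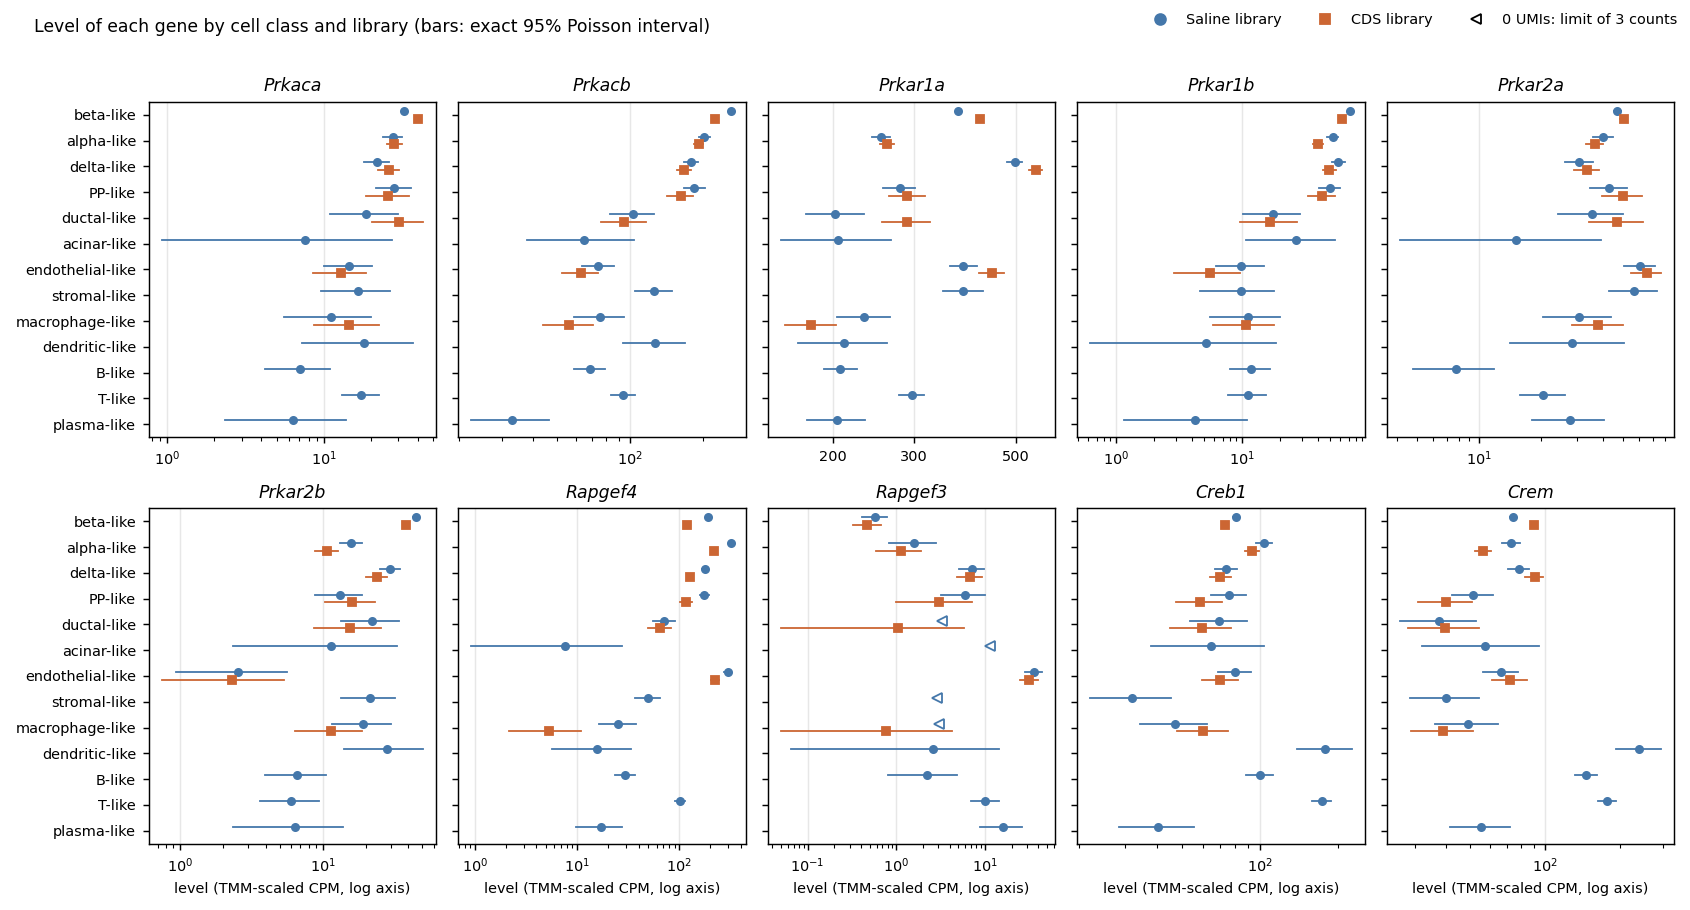
Level of each of the 10 genes (TMM-scaled CPM, log axis) in each cell class, with blue circles for the Saline library, orange squares for the CDS library, bars for exact 95% Poisson intervals and open triangles for the limit that 0 UMIs allow. Rapgef3 spans from about 0.5 CPM in beta-like cells to above 30 CPM in endothelial-like cells, while Prkar1a stays between 179.5 and 553 CPM in every class shown.

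With TMM factors both catalytic subunits had their highest level in beta-like cells. The order rests on the scaling: with plain library sizes alpha-like cells stood above beta-like ones, by 0.23 (log2) for Prkaca and 0.31 for Prkacb. Prkacb, which encodes the C-beta subunit, stood at 259.9 CPM (95% interval 256 to 264) in Saline and 223 CPM (220 to 227) in CDS beta-like cells. In alpha-like cells it stood at 202 and 191 CPM, in delta-like cells at 178 and 167 CPM, and in PP-like cells at 183 and 161 CPM. The endothelial-like level was 74.1 CPM (63.5 to 86.0) in the Saline and 62.7 CPM (52.6 to 74.2) in the CDS library, and the macrophage-like level was 75.2 and 56.3 CPM, so neither overlapped the endocrine classes in either library. Prkacb was lower than in beta-like cells in endothelial-like (0.285 of the beta-like level, adjusted p = 6.46e-09), macrophage-like (0.296, adjusted p = 3.71e-08) and ductal-like cells (0.439, adjusted p = 6.70e-06), by edgeR's quasi-likelihood test over all genes. In that test a gene was counted as higher or lower at an adjusted p under 0.05 and a log2 fold change of at least 1 in size, and each class gives 2 sums, 1 per library.

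Prkaca, which encodes the C-alpha subunit, followed the same outline. Its level was 32.9 CPM (31.5 to 34.3) in Saline and 40.1 CPM (38.6 to 41.6) in CDS beta-like cells, against 14.6 and 12.9 CPM in endothelial-like and 11.2 and 14.5 CPM in macrophage-like cells. The beta-like interval overlapped that of PP-like cells in the Saline library (21.7 to 36.3) and of ductal-like cells in the CDS library (20.3 to 43.4). Prkaca was lower than in beta-like cells in endothelial-like (0.382 of the beta-like level, adjusted p = 2.13e-06) and macrophage-like cells (0.390, adjusted p = 6.69e-05). Of the UMIs of both catalytic genes together, Prkacb took 88.8% (88.3 to 89.2, exact Clopper-Pearson interval for counting error) in Saline and 84.8% (84.2 to 85.3) in CDS beta-like cells. In alpha-like cells the Prkacb share was 88% and 87.1%, in delta-like cells 89.0% and 86.5%, and in endothelial-like cells 83.6% and 82.9%. That share compares classes and libraries for 1 gene pair, and it is not a ratio of protein, because the genes may be captured unequally.

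Among the regulatory subunits, Prkar1a, which encodes the type I alpha subunit, gave most of the regulatory UMIs in every class and library with at least 50 cells, a share that does not rank the genes, since their capture differs. It took 69.6% (69.1 to 70.0) of regulatory UMIs in Saline and 73.5% (73.1 to 74.0) in CDS beta-like cells, 80.8% and 83.8% in delta-like cells, and 84.1% and 85.9% in endothelial-like cells. B-like and T-like cells, measured in the Saline library alone, had the highest shares at 88.8% (86.1 to 91.1) and 88.8% (86.7 to 90.6). The Prkar1a level (chromosome 11, 109649405 to 109669656, plus strand) was highest in delta-like cells, at 498 CPM (480 to 517) in the Saline and 553 CPM (534 to 571) in the CDS library. Beta-like cells stood at 375 CPM (370 to 380) and 418 CPM (413 to 423), and the delta-like interval lay above the beta-like one in both libraries. The delta-like level was 1.35 times the beta-like one (adjusted p = 0.0378 by edgeR), under the fold limit of 2, and the adjusted p was 0.0635 with clusters in place of the gate and 0.0644 without the filter on low counts. Endothelial-like cells stood at 385 and 444 CPM, close to beta-like cells, and macrophage-like cells at 234 and 179.5 CPM, or 0.572 of the beta-like level (adjusted p = 0.000549).

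Prkar1b, the type I beta subunit best known from neurons, was highest in the endocrine classes. It stood at 72.1 CPM (70.1 to 74.2) in Saline and 61.5 CPM (59.6 to 63.4) in CDS beta-like cells, at 52.4 and 40.0 CPM in alpha-like, 58.1 and 49.3 CPM in delta-like and 49.4 and 43.1 CPM in PP-like cells. Endothelial-like cells held 23 and 12 UMIs, or 9.85 CPM (6.24 to 14.8) and 5.53 CPM (2.86 to 9.67), and macrophage-like cells 11 and 14 UMIs. It was lower than in beta-like cells in endothelial-like (0.116 of the beta-like level, adjusted p = 1.11e-10), macrophage-like (0.181, adjusted p = 2.23e-08) and ductal-like cells (0.276, adjusted p = 1.14e-06). With clusters in place of the gate the endothelial-like log2 fold change was -2.36 in place of -3.10. From the insulin RNA found in those cells, free beta-cell RNA would give 2.80 and 1.69 CPM of Prkar1b in endothelial-like and 3.13 and 2.19 CPM in macrophage-like cells, which is below the measured levels.

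Prkar2b, the type II beta subunit known for its role in neurons and fat, was the member that told beta-like cells from most other classes, with its highest level there in both libraries. The gene lies on chromosome 12 (31958476 to 32061296, minus strand). It stood at 44.9 CPM (43.3 to 46.6) in Saline and 38.7 CPM (37.2 to 40.3) in CDS beta-like cells, and at 29.8 CPM (25.4 to 34.8) and 23.9 CPM (20.2 to 28.1) in delta-like cells. Alpha-like cells held 15.9 CPM (13.2 to 19.1) and 10.7 CPM (8.90 to 12.8), and PP-like cells 13.3 CPM (8.88 to 19.0) and 16.0 CPM (10.4 to 23.4). The beta-like intervals lay above those of all 3 other endocrine classes in both libraries, while those of alpha-like and PP-like cells overlapped. Endothelial-like cells held 6 and 5 UMIs of it, or 2.57 CPM (0.943 to 5.59) and 2.31 CPM (0.749 to 5.38), and these intervals include the 1.74 and 1.06 CPM that free beta-cell RNA would give.

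By the same test Prkar2b was lower than in beta-like cells in 5 of the 6 classes. Its level was 0.320 of the beta-like one in alpha-like (adjusted p = 1.31e-08), 0.360 in PP-like (adjusted p = 1.33e-05), 0.393 in macrophage-like (adjusted p = 5.94e-05), 0.480 in ductal-like (adjusted p = 0.00114) and 0.0586 in endothelial-like cells (adjusted p = 6.74e-10). With clusters in place of the gate the PP-like difference was no longer counted (log2 fold change -0.24, adjusted p = 0.318), but that cluster of 780 cells was mixed, with beta-like as its commonest gate (31.0%) and 4 PP markers detected. With clusters the endothelial-like value was -3.32 in place of -4.09. The ductal-like difference was not counted with plain library sizes (-0.48, adjusted p = 0.115) or with called doublets kept (-0.81, adjusted p = 0.00717). Delta-like cells stood at 0.652 of the beta-like level (adjusted p = 0.000646), under the fold limit, and with plain library sizes at a log2 fold change of -0.05 (adjusted p = 0.785). Of the regulatory UMIs, Prkar2b made up 8.34% (8.05 to 8.63) and 6.82% (6.56 to 7.08) in beta-like, 4.39% (3.65 to 5.23) and 3.06% (2.55 to 3.64) in alpha-like, and 0.561% (0.206 to 1.22) and 0.446% (0.145 to 1.04) in endothelial-like cells.

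Prkar2a, the widely expressed type II alpha subunit, was highest in endothelial-like cells among the classes present in both libraries, where Prkar2b was lowest. Its levels were 47.0 and 50.3 CPM in beta-like, 40.1 and 36.5 CPM in alpha-like, 30.7 and 33.3 CPM in delta-like and 43.0 and 49.8 CPM in PP-like cells. Endothelial-like cells had 60.4 CPM (50.8 to 71.2) and 65.0 CPM (54.7 to 76.7), or 1.30 times the beta-like level (adjusted p = 0.00967, and 0.133 without the filter on low counts). In B-like cells of the Saline library it was down to 7.76 CPM (4.80 to 11.9), against 4.09 CPM from free beta-cell RNA. Among type II UMIs the endothelial-like cells therefore held almost only Prkar2a: 141 UMIs against 6 of Prkar2b in the Saline and 141 against 5 in the CDS library.

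**Figure D2:**
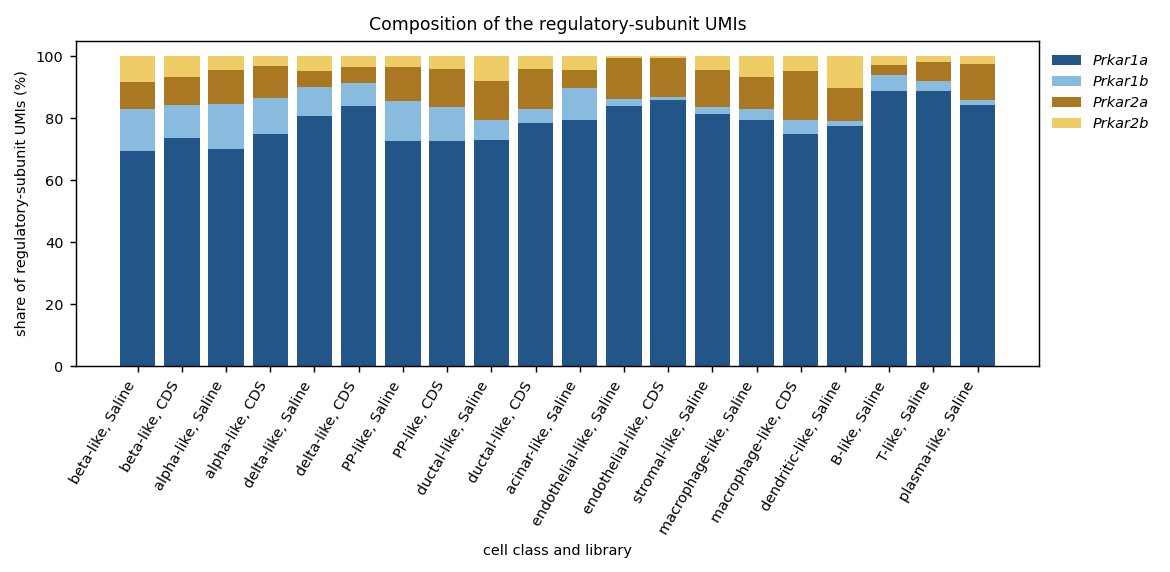
Stacked bars of the share (%) of regulatory-subunit UMIs held by Prkar1a, Prkar1b, Prkar2a and Prkar2b in each class and library with at least 50 cells. Prkar1b and Prkar2b together are visible in the endocrine bars and shrink to thin bands in endothelial-like cells, where Prkar2b is 0.561% and 0.446%.

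The 2 Epac genes had different patterns over the cell classes. Rapgef4 (chromosome 2, 71981240 to 72257474, plus strand, a span of 276 kb) was highest in alpha-like and endothelial-like cells, at 322 CPM (309 to 335) and 297 CPM (276 to 320) in the Saline library and 217 CPM (209 to 226) and 222 CPM (202 to 243) in the CDS library. The intervals of those 2 classes overlapped in both libraries. Beta-like cells stood at 190 CPM (187 to 194) and 120 CPM (117 to 122), delta-like cells at 179 and 128 CPM and PP-like cells at 176 and 117 CPM. Alpha-like cells had 1.79 times (adjusted p = 0.000720) and endothelial-like cells 1.71 times (adjusted p = 0.00101) the beta-like level, both under the fold limit of 2. Ductal-like cells stood at 71.7 and 64.6 CPM, 0.481 of the beta-like level (adjusted p = 0.000859), which was not counted with plain library sizes (log2 fold change -0.48, adjusted p = 0.0885) or with called doublets kept (-0.91, adjusted p = 0.00205).

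Macrophage-like cells had the lowest Rapgef4 level of the classes present in both libraries. They held 25 UMIs in the Saline and 7 in the CDS library, or 25.4 CPM (16.5 to 37.5) and 5.33 CPM (2.14 to 11), at 0.102 of the beta-like level (adjusted p = 2.39e-08). Free beta-cell RNA would give 8.26 and 4.27 CPM there, so the CDS interval includes it and the Saline interval does not. T-like cells of the Saline library had 323 UMIs of Rapgef4, or 102 CPM (91.3 to 114), against 14.4 CPM from free RNA, and B-like cells 29.6 CPM (23.4 to 36.8) against 16.6 CPM.

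Rapgef3 (chromosome 15, 97744770 to 97767972, minus strand) had the widest range of the 10 genes. Beta-like cells held 38 UMIs over 4949 Saline cells and 31 over 3627 CDS cells, or 0.574 CPM (0.406 to 0.788) and 0.474 CPM (0.322 to 0.673). Endothelial-like cells held 84 and 69 UMIs, or 36 CPM (28.7 to 44.5) and 31.8 CPM (24.8 to 40.3), which was 63.9 times the beta-like level (adjusted p = 3.81e-11). Delta-like cells held 39 and 42 UMIs, or 7.22 CPM (5.13 to 9.87) and 6.79 CPM (4.89 to 9.18), and were 13.4 times above beta-like cells (adjusted p = 7.37e-08). PP-like cells stood at 5.94 CPM (3.16 to 10.2) and 3.08 CPM (0.999 to 7.18), 9.16 times the beta-like level (adjusted p = 8.44e-05). In the mixed PP cluster the log2 fold change was 2.26 in place of 3.19. Alpha-like cells held 12 and 13 UMIs and stood at 1.59 and 1.12 CPM, 2.58 times the beta-like level (adjusted p = 0.00899).

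The order of Rapgef3 was thus endothelial-like first, then delta-like and PP-like, whose intervals overlapped, then alpha-like, and beta-like cells last among these classes in both libraries, although in the CDS library the alpha-like interval (0.597 to 1.92) overlapped those of PP-like and beta-like cells. Outside them, plasma-like cells of the Saline library held 15 UMIs, or 15.9 CPM (8.92 to 26.3), and T-like cells 32 UMIs, or 10.1 CPM (6.92 to 14.3). No UMI of it was found in Saline macrophage-like, ductal-like, stromal-like or acinar-like cells, which, at a limit of 3 UMIs, allows up to 3.05 CPM in macrophage-like and 3.31 CPM in ductal-like cells, and the CDS library had 1 UMI in each of the first 2 classes. As a share of Epac UMIs, Rapgef3 was 0.301% (0.213 to 0.412) and 0.394% (0.268 to 0.559) in beta-like, 3.88% (2.77 to 5.26) and 5.04% (3.66 to 6.75) in delta-like, and 10.8% (8.70 to 13.2) and 12.5% (9.89 to 15.6) in endothelial-like cells. In plasma-like cells it was 48.4% (30.2 to 66.9) of 31 UMIs.

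With each cell thinned to 3000 UMIs, the share of cells with a Rapgef3 UMI was 14.6% (10.7 to 19.3) of Saline and 9.48% (5.89 to 14.3) of CDS endothelial-like cells. It was 2.47% (1.24 to 4.38) and 1.60% (0.588 to 3.44) of delta-like cells, against 0.125% (0.0458 to 0.271) and 0.202% (0.0813 to 0.416) of beta-like cells. Cells with fewer UMIs than that depth were left out of the thinned shares. Without thinning, over all cells of each class, the shares were 21.3% and 22.5%, 8.10% and 9.95%, and 0.748% and 0.772%. A Rapgef4 UMI was found in 62.1% (58.5 to 65.5) and 47.8% (44.5 to 51.2) of alpha-like cells, 35.5% (34.1 to 36.9) and 21.1% (19.7 to 22.5) of beta-like cells, and 7.09% (3.45 to 12.7) and 0.763% (0.0193 to 4.18) of macrophage-like cells at that depth. A fixed total of UMIs, insulin RNA included, acts like plain library sizes. Those raise alpha-like against beta-like levels by 0.47 (Saline) and 0.74 (CDS) on the log2 scale. Rapgef3 and Rapgef4 are overlapped on the opposite strand by Rapgef3os1 and Rapgef3os2 and by Rapgef4os1, Rapgef4os2 and Rapgef4os3, and no source used here states whether counting used strand.

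For Creb1 and Crem no class present in both libraries passed the fold limit against beta-like cells. Creb1 was 80.9 and 73.1 CPM in beta-like, 103 and 93.0 CPM in alpha-like, 73.6 and 70.2 CPM in delta-like and 79.7 and 70.1 CPM in endothelial-like cells. The alpha-like level was 1.30 times the beta-like one (adjusted p = 0.00358), under the fold limit. Crem was 74.2 and 90.0 CPM in beta-like, 72.9 and 56.2 CPM in alpha-like, 78.3 and 90.7 CPM in delta-like and 48.8 and 38.8 CPM in macrophage-like cells. The lowest fold of Crem, a log2 value of -0.99 in ductal-like cells, lay just inside that limit, and without the filter on low counts it passed (-1.30, adjusted p = 5.04e-11). Levels of both genes ranged widely among immune cells of the Saline library. Dendritic-like cells had 240.2 CPM (194 to 294) of Crem and 178 CPM (139 to 226) of Creb1, T-like cells 177 CPM (163 to 193) and 173 CPM (159 to 188), and B-like cells 146 CPM (132 to 161) of Crem, with Creb1 near the alpha-like level at 99.8 CPM (88.2 to 112). Plasma-like cells had only 55.3 CPM of Crem and 40.4 CPM of Creb1, and Saline macrophage-like cells 46.8 CPM of Creb1. Of these, the dendritic-like, T-like, B-like and plasma-like classes had too few cells in the CDS library to be compared.

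**Figure D3:**
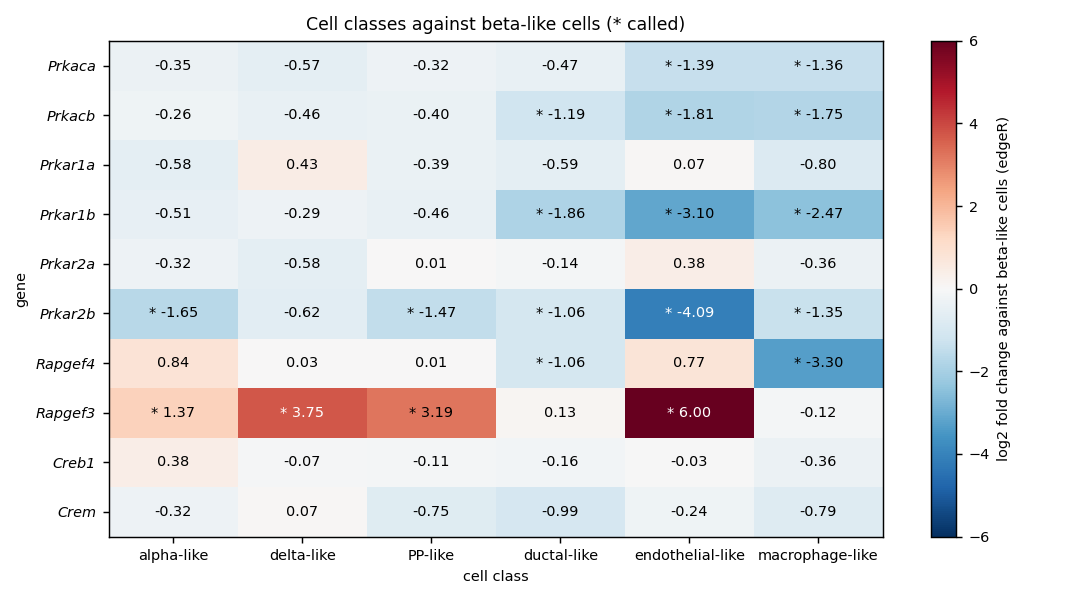
Heat map of the log2 fold change of each gene (rows) in 6 cell classes (columns) against beta-like cells, from edgeR on the 14 class-by-library sums, with an asterisk where a gene was counted as higher or lower. Red cells of the Rapgef3 row reach 6.0 in endothelial-like cells, and blue cells of the Prkar2b row reach -4.09 there.

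Counted over the 10 genes, 1 was higher and 1 lower in alpha-like cells, 1 and 0 in delta-like, 1 and 1 in PP-like, 1 and 4 in endothelial-like, 0 and 5 in macrophage-like and 0 and 4 in ductal-like cells. Over the 13495 genes tested, 9.4% were higher and 9.65% lower in alpha-like, 9.32% and 6.71% in delta-like, 7.26% and 6.97% in PP-like, 20.9% and 28.2% in endothelial-like, 20.4% and 25.3% in macrophage-like, and 15% and 13.4% in ductal-like cells. The median log2 fold change of the 10 genes was -1.08 in macrophage-like and -0.79 in ductal-like cells, against -0.12 and -0.09 over all genes, and -0.13 against -0.13 in endothelial-like cells. Insulin RNA fills much of a beta-like sum, and plain library sizes move every gene of the other classes up against beta-like cells by 0.31 to 0.79 on the log2 scale. Under that scaling 15 of the 19 differences above were still counted, all those of Rapgef3 among them, and the sign of 15 of all 60 differences turned, none of them among the 19. Prkaca in endothelial-like cells (-0.71, adjusted p = 0.00495) and Prkacb in ductal-like cells (-0.61, adjusted p = 0.00365) fell below the fold limit, while Rapgef4 passed it in alpha-like (1.41, adjusted p = 3.58e-06) and endothelial-like cells (1.45, adjusted p = 1.42e-06) and Prkar2a in endothelial-like cells (1.05, adjusted p = 3.41e-06).

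The second comparison set the CDS library against the Saline library within each class of at least 100 cells in both. Ratios are CDS over saline with a 95% interval for counting error, and a gene was counted as higher when the ratio was at least 25% above 1, and as lower when it was at least 20% below 1, if the interval excluded 1 and both libraries together held at least 50 UMIs. In beta-like cells all 10 genes could be measured, and 2 were higher and 1 lower, where 28% of 15301 genes were higher and 18.5% lower by the same rule. The levels of this comparison are scaled for each pair of sums, and so differ from the levels above.

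In beta-like cells Rapgef4 was the gene furthest from 1. It held 12602 UMIs in the Saline and 7828 in the CDS library, and its ratio was 0.658 (0.639 to 0.677). It was counted as lower in the 4 classes where it could be measured that way, at 0.702 (0.664 to 0.743) in alpha-like cells (2422 and 2515 UMIs), 0.724 (0.658 to 0.796) in delta-like cells (967 and 791 UMIs) and 0.749 (0.665 to 0.842) in endothelial-like cells (694 and 481 UMIs). In macrophage-like cells, with 25 and 7 UMIs, it fell short of the UMI limit. The share of genes lower by this rule was 11.5% in alpha-like, 13% in delta-like and 12.7% in endothelial-like cells.

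The ratio of CDS over saline moved with the length of genes in these libraries, and Rapgef4 is among the longest. Its span of 276 kb is longer than that of 97.9% of annotated genes. In beta-like cells the median log2 ratio of all genes went from 0.51 in the fifth of genes with the shortest spans (median 3.79 kb) to -0.35 in the fifth with the longest (median 129 kb). After each log2 ratio was set against the running median of genes of like span, Rapgef4 stood at -0.12 in beta-like, -0.13 in alpha-like, -0.05 in delta-like and 0.12 in endothelial-like cells, and was counted as lower in none of them. As ratios, the beta-like value was 0.923 (0.897 to 0.949) and the alpha-like value 0.911 (0.861 to 0.964), with intervals that still exclude 1. The delta-like and endothelial-like intervals include 1. With this adjustment 14.9% of genes in beta-like, 8.66% in alpha-like, 7.33% in delta-like and 9.63% in endothelial-like cells were still lower, and no member was counted as higher in alpha-like or endothelial-like cells, where 9.58% and 9.92% of genes were.

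**Figure D4:**
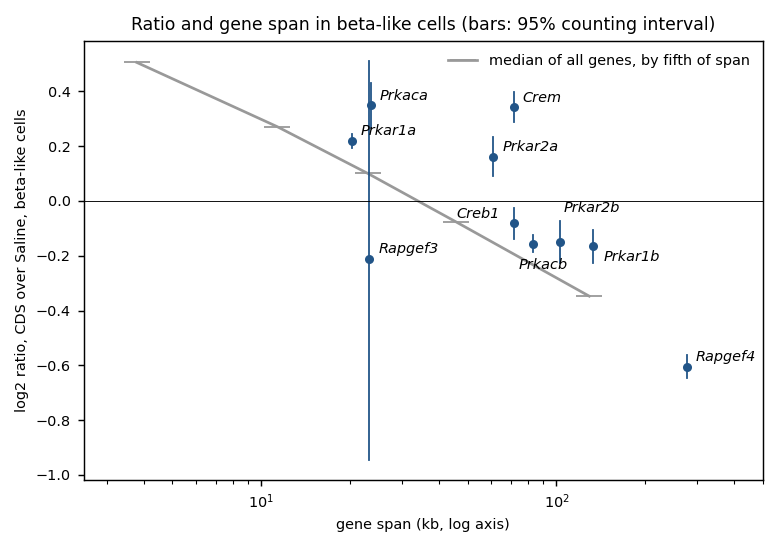
Log2 ratio of CDS over saline in beta-like cells (vertical axis, with bars for 95% counting intervals) against gene span in kb (log axis) for the 10 genes, with the grey line joining the medians of all genes in 5 bins of span. Rapgef4 lies at the lower right near the extension of the line, while Crem lies above the line at a span of 71.7 kb.

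Crem was the member furthest above genes of like span in beta-like cells. After that adjustment 7 other members also stood above 1 there with intervals that exclude 1, from 1.03 for Prkacb to 1.24 for Prkar2a, all short of the limit. The gene lies on chromosome 18 (3266048 to 3337748, minus strand). In beta-like cells it held 4916 Saline and 5881 CDS UMIs, for a ratio of 1.27 (1.22 to 1.32), and after the span adjustment the log2 ratio was 0.52 and it was the 1 member still counted as higher, where 16.7% of genes were. The call before the adjustment rests on the scaling. A common scaling factor drops out of the adjusted ratio by construction, since that ratio is taken against the median of genes of like span. With plain CPM, which shifted the median over all genes by -0.41 in beta-like and -0.11 to -0.18 in other cells, the unadjusted log2 ratio of Crem was -0.07. With a mean over cells it was also -0.07, and with median-of-ratios factors or called doublets kept the unadjusted ratio fell just under the limit. In delta-like cells (423 and 561 UMIs) the ratio was 1.17 (1.03 to 1.33), and 1.29 (1.14 to 1.47) after the span adjustment, which was counted as higher where 8.92% of genes were. Alpha-like cells went the other way, with 549 and 651 UMIs and a ratio of 0.802 (0.715 to 0.900), just outside the limit of 0.8, and 0.883 (0.787 to 0.991) after the adjustment. In endothelial-like cells it was 1.09 (0.865 to 1.37) and in macrophage-like cells 0.798 (0.527 to 1.21), with intervals that include 1.

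Prkaca was the other member counted as higher in beta-like cells. It held 2178 Saline and 2620 CDS UMIs, for a ratio of 1.27 (1.2 to 1.35), or 1.2 (1.14 to 1.28) after the span adjustment, which is under the limit. With plain CPM its log2 ratio was -0.06 and with a mean over cells -0.05. In alpha-like and delta-like cells its ratios were 1.07 (0.897 to 1.28) and 1.2 (0.938 to 1.53), with intervals that include 1. Prkacb, in contrast, had a beta-like ratio of 0.898 (0.878 to 0.918) from 17214 and 14590 UMIs, and 0.988 (0.925 to 1.05) in alpha-like cells. The Prkaca share of catalytic UMIs, which needs no scaling between libraries, was 11.2% (10.8 to 11.7) in Saline and 15.2% (14.7 to 15.8) in CDS beta-like cells, and 12.0% (10.5 to 13.7) and 12.9% (11.6 to 14.3) in alpha-like cells. Prkaca spans 23.5 kb and Prkacb 83.4 kb, so the trend over gene span runs in the same direction as the beta-like shift in share.

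Of the regulatory subunits none was counted in either direction in beta-like cells. The beta-like ratios were 1.16 (1.14 to 1.18) for Prkar1a, 1.12 (1.07 to 1.18) for Prkar2a, 0.891 (0.855 to 0.930) for Prkar1b and 0.901 (0.854 to 0.95) for Prkar2b. After the span adjustment all 4 stood above 1, from 1.06 for Prkar1a to 1.24 for Prkar2a, the latter just under the limit for a higher gene. In alpha-like cells Prkar1b (395 and 463 UMIs) was counted as lower at 0.793 (0.692 to 0.909) and Prkar2b (120 and 124 UMIs) at 0.699 (0.539 to 0.906), and with Rapgef4 they made 3 of 9 measured members, where 11.5% of genes were lower. After the adjustment they stood at 0.931 (0.812 to 1.07) and 0.808 (0.624 to 1.05), and none of the 3 was counted, where 8.66% of genes were lower.

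Prkar1a was counted as lower in macrophage-like cells. Its ratio was 1.07 (1.01 to 1.14) in alpha-like, 1.12 (1.07 to 1.18) in delta-like and 1.16 (1.05 to 1.27) in endothelial-like cells. In macrophage-like cells it held 230 Saline and 236 CDS UMIs, for a ratio of 0.771 (0.640 to 0.928), and it was counted as lower, also after the span adjustment (0.710, 0.589 to 0.855). Among the 6152 genes measured in macrophage-like cells 12.1% were lower before and 11.6% after the adjustment. Before the span adjustment the ratios above 1 in other classes rest on the scaling. With plain CPM they were 0.878 (0.863 to 0.893) in beta-like, 0.982 in alpha-like, 1.04 (0.986 to 1.09) in delta-like and 1.05 (0.959 to 1.15) in endothelial-like cells. After the span adjustment they were 0.996 in alpha-like and 1.01 in endothelial-like cells. In beta-like and delta-like cells they stayed above 1, at 1.06 (1.05 to 1.08) and 1.06 (1.01 to 1.12). Each of those classes has 1 library per group, and the difference between classes was not tested.

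Rapgef3, the member with the fewest UMIs in beta-like cells, and Creb1 gave no call. Rapgef3 had ratios of 0.864 (0.520 to 1.43) in beta-like, 0.953 (0.601 to 1.51) in delta-like and 0.887 (0.636 to 1.23) in endothelial-like cells. Creb1 was at 0.946 (0.909 to 0.983) in beta-like, 0.937 (0.854 to 1.03) in alpha-like, 0.965 (0.840 to 1.11) in delta-like, 0.883 (0.708 to 1.10) in endothelial-like and 1.29 (0.886 to 1.90) in macrophage-like cells. For Rapgef3 the intervals are wide enough to include a change past the limit in either direction in beta-like and delta-like cells.

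**Figure D5:**
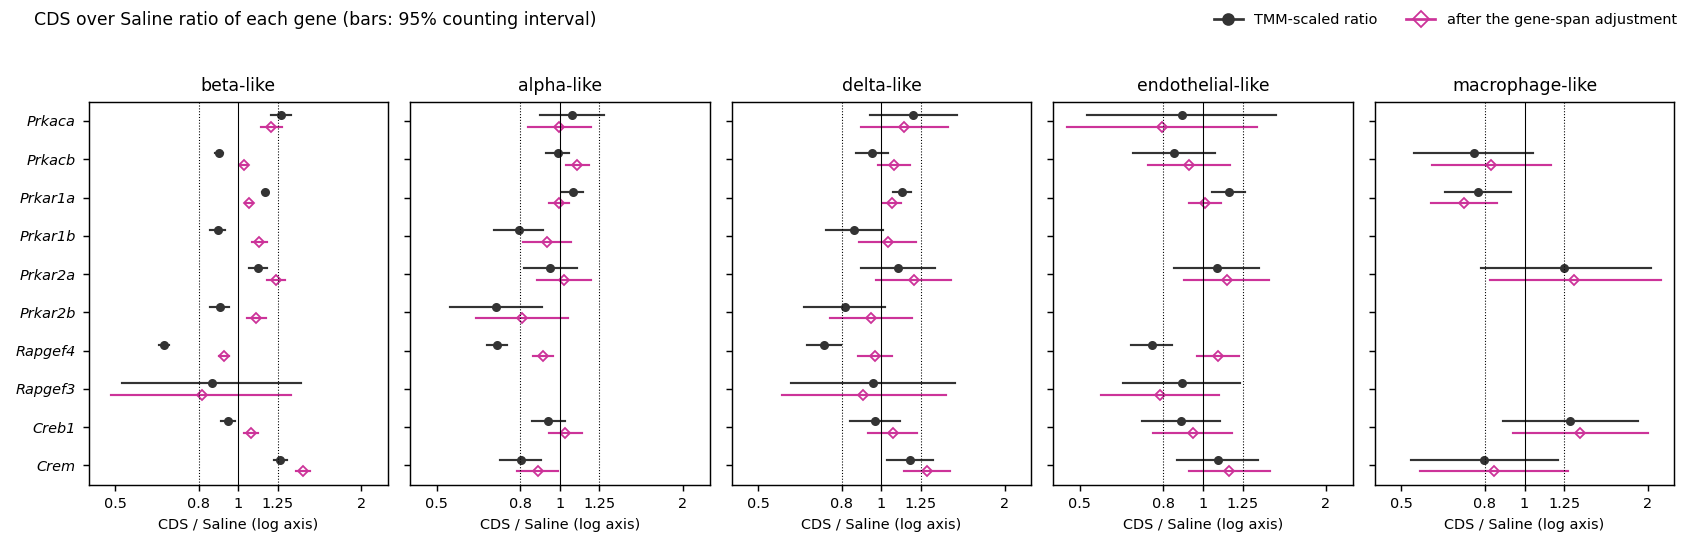
Ratio of CDS over saline (log axis) of each gene in 5 cell classes, with filled circles for TMM-scaled ratios, open diamonds for ratios after the gene-span adjustment, bars for 95% counting intervals and dotted lines at the limits, 20% below and 25% above 1. Rapgef4 moves from 0.658 to 0.923 with the adjustment in beta-like cells, and Crem lies above 1 in beta-like and delta-like and below 1 in alpha-like cells.

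Around these 10 genes, 6 lists of 90 genes in all covered partners and targets of PKA, Epac and CREB. In beta-like cells 84 of them could be measured, and 13 were higher and 25 lower, where 28% of all genes were higher and 18.5% lower, with a median log2 ratio of -0.16 against 0.06 over all genes. After the span adjustment 7 were higher and 10 lower, where 16.7% and 14.9% of genes were, with a median of -0.04. The counts of single lists below are to be read against the same shares. After the adjustment, 2 of 18 anchoring genes, 2 of 16 Rap and Epac genes and 1 of 14 secretion substrates were lower, in place of 5, 6 and 6 before it. In the same lists 1, 3 and 0 genes were higher after it.

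Of the PKA inhibitors and related kinases, 2 of 6 were higher and 2 lower, and 2 and 0 after the span adjustment. Pkig, a heat-stable inhibitor that binds the free catalytic subunit, stood at 1.47 (1.40 to 1.54) from 3163 and 4389 UMIs, and its log2 ratio was 0.72 after the span adjustment. Prkg1, the cyclic GMP-dependent kinase, stood at 0.534 (0.501 to 0.569), with an adjusted log2 ratio of -0.32. Among the 18 measured anchoring proteins, which tie PKA to places in the cell, 0 were higher and 5 lower. Akap6 was at 0.597 (0.556 to 0.641) and Akap10 at 0.682 (0.644 to 0.722), with adjusted log2 ratios of -0.15 and -0.39.

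Rap exchange factors and Epac effectors had 3 higher and 6 lower of 16. Rims2 and Pclo, active-zone proteins that bind Epac2, stood at 0.665 (0.651 to 0.680) and 0.666 (0.657 to 0.676), and with spans of 486 and 349 kb their adjusted log2 ratios were 0.00174 and -0.05. The PKA substrates of secretion had 1 higher and 6 lower of 14, among them Cacna1c, the pore of an L-type calcium channel, at 0.546 (0.537 to 0.554) and -0.28 after the adjustment.

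CREB cofactors had 2 higher and 2 lower of 12 genes. Sik3, a kinase that restrains CREB coactivators, stood at 0.698 (0.681 to 0.716), and Ppp1ca, a catalytic subunit of protein phosphatase 1, at 1.5 (1.44 to 1.55). After the adjustment 0 of the 12 were counted in either direction, and these 2 genes had log2 ratios of -0.07 and 0.05. CREB target genes had 5 higher and 5 lower of 20, with a median log2 ratio of 0.03, or -0.19 after the adjustment. Among the lower was Fosb at 0.667 (0.623 to 0.715), with an adjusted log2 ratio of -0.95. Junb stood at 1.72 (1.68 to 1.76), with 11980 and 19469 UMIs, and Dusp1 at 1.54 (1.44 to 1.66). After the adjustment 1 of the 20 was higher and 5 lower, with Junb at 0.28 and Dusp1, the higher gene, at 0.75. The adjusted value of Dusp1 rests on its annotated span of 56.5 kb, and no other span was tried. In alpha-like cells 1 target gene was higher and 7 lower of 19, and 0 and 8 after the adjustment, where 19.7% and 11.5% of genes were before it and 9.58% and 8.66% after it. In delta-like cells 5 were higher and 1 lower of 20, and 1 and 2 after the adjustment, where 16.5% and 13% of genes were before it and 8.92% and 7.33% after it.

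For each gene the nearest patterns over the 14 class-by-library sums were found by Pearson's correlation of log2(CPM + 1), as a description with no test, since sums of 1 library share their depth and many genes follow the split between endocrine and other cells. Prkar1b lay nearest Scly (r = 0.989) and Syp (r = 0.985), the gene of a vesicle protein of neurons and endocrine cells, and Prkacb nearest Map7d2 (r = 0.986) and the somatostatin receptor gene Sstr3 (r = 0.983). Rapgef4 lay nearest Ttbk2 (r = 0.983), Prkar2a nearest Arhgap1 (r = 0.955), Prkaca nearest Arfip2 (r = 0.954), Prkar2b nearest Mdh1 (r = 0.951) and Rapgef3 nearest Afap1l1 (r = 0.945). Creb1 (Wdr33, r = 0.926), Prkar1a (Pgrmc2, r = 0.908) and Crem (Txndc12, r = 0.848) had the least close neighbours among the 11460 genes searched.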

How the data were processed

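Droplet single-cell RNA libraries were made from islets isolated under a stereomicroscope after collagenase digestion, 1 from a saline and 1 from a CDS group. The deposited matrices hold raw UMI counts per gene and barcode, made with Cell Ranger 7.1.0 per the file headers; mm10, Cell Ranger 7.1, Seurat 4 and edgeR are listed per the submitters' processing notes. The labels' protocols name 3′ v3.1 and v2 chemistry, while annotation, strand and intron counting were not given in the sources used here. Members and lists were chosen with earlier results of these data known.

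Barcodes with at least 500 genes, 1000 UMIs and at most 20% mitochondrial UMIs were kept, and doublets (Scrublet in Scanpy, 5.50% of Saline and 4.41% of CDS barcodes) were removed. Cells were gated on fixed markers (insulin 15% of UMIs for beta-like, Gcg 2%, Sst 1%, Ppy 5%, acinar enzymes 5%, or at least 3 to 5 markers for other classes), and 15.2% of Saline and 9.07% of CDS cells stayed unassigned. Cells are not replicates. UMIs were summed per class and library, and each of the 6 other classes with at least 50 cells in both libraries was tested against beta-like cells with edgeR 4.0.16 (TMM, filterByExpr, quasi-likelihood test, library as a block, Benjamini-Hochberg over all genes). With 2 libraries, nothing in the labels says how many cultures or animals stand behind the p-values. The CDS over saline ratio of TMM-scaled CPM carries an exact conditional Poisson interval, with no test, and intervals cover counting error only. The span adjustment subtracts the running median over 501 genes of like annotated span (GENCODE, mm10). Free beta-cell RNA is the beta-like CPM times the insulin share of the class relative to beta-like cells. Named genes were all members, up to 2 genes per list with the largest absolute log2 ratio in beta-like cells at 20 CPM or more, and the closest genes by correlation among those at 10 CPM or more. Fosb, a target gene counted as lower, was named outside this rule. Alternatives were other cell filters (200 genes, 500 UMIs, 25%, and 1000 genes, 2000 UMIs, 10%), doublets kept, Leiden clusters (21), DESeq2 1.42.0, no low-count filter, plain library sizes, other scalings, a mean over cells, 20 UMIs in place of 50, and thinning to 8000 UMIs. Other tools were Python 3.11.15, Scanpy 1.11.5 and R 4.3.3.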

Additional observations from a re-analysis of the deposited data

Results flagged for a closer look

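Crem and Prkar1a had ratios of CDS over saline in opposite directions in different cell classes, each with a counting interval that excludes 1. For Crem the ratio was 1.27 in beta-like and 1.17 in delta-like cells and 0.802 in alpha-like cells. For Prkar1a it was 1.16 in beta-like, 1.07 in alpha-like, 1.12 in delta-like and 1.16 in endothelial-like cells and 0.771 in macrophage-like cells. With plain CPM the ratio of Prkar1a was 0.878 in beta-like, 0.982 in alpha-like, 1.04 in delta-like and 1.05 in endothelial-like cells. It was 0.681 (0.566 to 0.820) in macrophage-like cells. The alpha-like, delta-like and endothelial-like intervals include 1, so before the span adjustment the opposite directions rest on the scaling. The span-adjusted ratio is taken against the median of genes of like span, so a common scaling factor drops out of it by construction. For Prkar1a the span-adjusted ratio was 1.06 (1.05 to 1.08) in beta-like, 1.06 (1.01 to 1.12) in delta-like and 0.710 (0.589 to 0.855) in macrophage-like cells. In alpha-like and endothelial-like cells it was 0.996 and 1.01. The difference between classes was not tested, because each group has 1 library. Before the span adjustment Crem in beta-like cells also turned below 1 with plain CPM (log2 ratio -0.07), and after the adjustment its log2 ratio was 0.52.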

How the results depend on the processing

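No paired analysis was possible because each group has 1 library, which holds for CDS against saline; the class comparison had the library as a block. Between classes, the counts of members called held within 1.5 times under all alternatives run, save 1 for PP-like cells with clusters in place of the gate, and 2 with doublets kept (Prkar2b and Rapgef4 lost) and 1 with plain library sizes for ductal-like cells. Within 1 library alone the counts ran from 2 to 3 in PP-like, 4 to 5 in ductal-like and 5 to 7 in macrophage-like cells, by fold only.

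The sign of log2 fold changes against beta-like cells turned with plain library sizes for Prkaca (0.23), Prkacb (0.31), Prkar1b (0.062), Prkar2a (0.25) and Crem (0.25) in alpha-like, Prkacb (0.10), Prkar1b (0.28) and Creb1 (0.49) in delta-like, Creb1 in PP-like (0.16), Creb1 (0.65) and Crem (0.45) in endothelial-like, Rapgef3 in macrophage-like (0.21), and Prkaca (0.11), Prkar2a (0.43) and Creb1 (0.42) in ductal-like cells. It also turned without the low-count filter for Rapgef4 (-0.0462) and Crem (-0.00197) in delta-like, Prkar2a (-0.16) and Rapgef4 (-0.16) in PP-like, Prkar1a in endothelial-like (-0.0425) and Rapgef3 in ductal-like cells (-0.18). The rest were Creb1 in delta-like (0.00151, DESeq2) and endothelial-like cells (0.0649, DESeq2, and 0.00292, looser filter), Prkar2a in PP-like (-0.0241, doublets kept, and -0.19, clusters), Rapgef4 in PP-like (-0.0678, clusters) and Rapgef3 in ductal-like cells (-0.0487, doublets kept).

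For CDS over saline, members higher in beta-like cells (2) numbered 0 with plain CPM, median-of-ratios factors, CPM leaving out genes of hormones, acinar enzymes and mitochondria and a mean over cells, and 1 with doublets kept or after the span adjustment. Members lower there (1) numbered 5 with plain CPM, without those genes and with a mean over cells, and 0 after the span adjustment. Log2 ratios of Prkaca and Crem in beta-like cells were -0.0585 and -0.0665 with plain CPM and -0.0537 and -0.0724 with a mean over cells, and Rapgef4 in endothelial-like cells was 0.12 after the span adjustment. Members lower in alpha-like cells (3) numbered 5 with a mean over cells and 0 after the adjustment. In delta-like cells (1) they numbered 3 with plain CPM, 2 without those genes, 4 with a mean over cells and 0 after the adjustment, which left 1 higher. In endothelial-like cells (1) they numbered 2 with clusters, plain CPM or a mean over cells, 3 without those genes and 0 after the adjustment. In macrophage-like cells (1) they numbered 2 with clusters, plain CPM, without those genes or at 20 UMIs, and 3 with a mean over cells. Of the listed genes in beta-like cells 1 was higher and 60 lower with plain CPM, 3 and 48 without those genes, 1 and 58 with a mean over cells, and 7 and 10 after the adjustment. The cause of these changes was not tested.

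Thinned to 8000 UMIs in place of 3000, Rapgef3 was found in 6.90% of Saline and 6.41% of CDS delta-like cells and 0.347% of Saline beta-like cells, and Rapgef4 in 86.4% and 75.8% of alpha-like and 66.9% and 42.2% of beta-like cells. Cells below 8000 UMIs were left out, so both the depth and the set of cells changed. The median was 8201 UMIs in Saline alpha-like and 9837 in Saline delta-like cells, so many cells fell below that depth. Depth limits Rapgef3 most, with 12 and 13 UMIs in alpha-like cells.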
